A study of Danio rerio with 2 samples.

Results

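Cell cycle genes were followed across neural crest and pigment cells of the zebrafish embryo. A list of 35 symbols, of genes switched on around S phase or around G2 and mitosis, was matched without regard to case to the gene rows of the authors' filtered count table. It gave 36 gene rows of 18723, because 2 rows carry the name RRM2, and all 36 held at least 10 unique molecular identifiers (UMIs, each standing for 1 captured RNA molecule). Of these rows 17 made up the S list and 16 the G2/M list. The other 3 (hmgb2a, hmgb2b and ccnd1) are not confined to one phase and were kept out of the main per-cell calls. They were added to those calls only as an alternative setting. The row used for hmgb2a is named HMGB2 and the row used for birc5a is named BIRC5, and each was the single row with that name.

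A dividing cell copies its DNA in S phase and separates the copies in mitosis, and many of the proteins needed are made afresh in each cycle. Transcripts of replication proteins rise as cells enter S phase and those of mitotic kinases, cyclins and spindle proteins rise later. The pair of lists thus gives levels of transcripts tied to each part of the cycle, and does not by itself count dividing cells. Neural crest cells divide while they migrate, and differentiating pigment cells tend to leave the cycle as they take up pigment synthesis.

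The cells came from AB wild-type embryos at 24 hours post fertilisation and had been sorted for a green reporter driven by mitfa and a red one driven by crestin. One group was left untreated and one was given ErbBi, a name taken to stand for a block of ErbB receptors, with a dose and duration that the labels used here do not state. Each group is 1 library of 10x 3' version 2 chemistry, so library and treatment cannot be told apart, no difference between treatments has a replicate check, and no p-value is given. Intervals throughout are at the 95% level and describe counting error alone.

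Depth differed between the libraries: 7242348 UMIs in 999 untreated cells (median 7099 per cell), but 1113172 UMIs in 348 ErbBi cells (median 2732.5 per cell). Cell names end in a number that was read as the library through the same number in the sample titles, and 6 cell barcodes occur in both libraries. Cells were put in 6 classes by genes that are not on the cell cycle list, each cell taking the first rule it met, and 291 cells met more than 1 rule. Melanin-high cells spent over 1% of their UMIs on the melanin synthesis genes dct, pmela and tyrp1 (404 untreated and 64 ErbBi cells). Cells with over 2% of UMIs in gch2, a gene of pteridine synthesis in yellow pigment cells, were called gch2-high (124 and 19 cells). EGFP-high cells lay above the 90th percentile for reporter RNA (82 and 20 cells). The twist1a-high cells had at least 3 UMIs of this mesenchyme gene and a share above the 85th percentile (69 and 104 cells). Cells with at least 1 UMI of the crest gene foxd3 were called foxd3-positive (162 and 49 cells), and 158 and 92 cells met no rule and are called remaining. Crest genes differed between the classes. In untreated twist1a-high cells sox10, a crest transcription factor, stood at 71.8 CPM (the gene's UMIs per 1000000 UMIs of the class). In untreated melanin-high cells it stood at 389 CPM. For crestin, whose reporter was sorted for, the levels were 74.8 and 363 CPM in the same classes.

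In untreated embryos the summed S genes were lowest in melanin-high cells and highest in twist1a-high cells. The S sum was 632 CPM in melanin-high cells (603 to 661), 1206 in EGFP-high, 1533 in gch2-high, 2427 in remaining, 3149 in foxd3-positive and 4958 in twist1a-high cells (4791 to 5130). Neighbours in this order did not overlap in their counting intervals. These intervals leave out the spread between cells of a class, so they do not settle the order of neighbours. The share of untreated cells called cycling, described below, was 47.5% in gch2-high and 46.4% in remaining cells. That is the reverse of their S order, with intervals that overlap. Against all other untreated cells the melanin-high S sum was 0.232 times as high (0.221 to 0.244) and the twist1a-high S sum 3.18 times as high (3.06 to 3.31). The summed G2/M genes gave 294 CPM in melanin-high cells, 369 in gch2-high, 639.7 in EGFP-high, 858 in remaining, 1358 in foxd3-positive and 1492 in twist1a-high cells. Here the intervals of foxd3-positive (1298 to 1420) and twist1a-high cells (1401 to 1588) met. The gch2-high cells ranked above the EGFP-high cells for S and below them for G2/M. Among cells of these classes without a foxd3 UMI the G2/M order was the reverse, 427 CPM in gch2-high and 244 in EGFP-high cells. Untreated gch2-high cells held 4.15 S UMIs per G2/M UMI (3.63 to 4.76), the EGFP-high cells 1.89 (1.67 to 2.12), the foxd3-positive cells 2.32 and the twist1a-high cells 3.32.

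**Figure D1:**
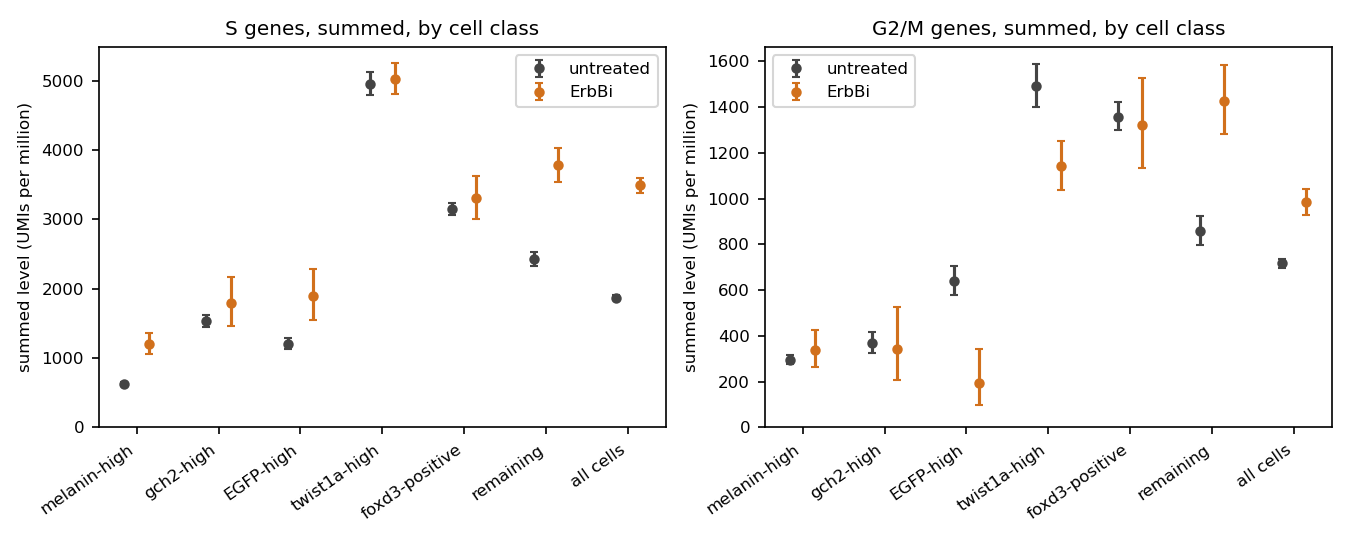
Summed S genes (left) and G2/M genes (right) in CPM for each cell class and for all cells, in the untreated and the ErbBi library; points are class totals and bars 95% counting intervals. The melanin-high cells are lowest for S in both libraries (632 and 1205) and the twist1a-high cells highest (4958 and 5031).

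A member was called higher or lower where the CPM ratio was at least 1.5-fold and its whole interval lay on that side of 1. In untreated melanin-high cells 35 of 36 members were lower than in the other untreated cells and none higher, while over all 11628 genes tested 22.6% were lower and 14.3% higher. The exception was bub1, a spindle checkpoint kinase, with 3 UMIs in these cells and 15 in the library. The members' median log2 ratio was -1.90 against -0.17 over all genes tested. In twist1a-high cells 35 of 36 were higher and none lower (14.5% and 13.8% of all genes), and in foxd3-positive cells again 35 were higher and none lower (11.6% and 9.37%), with bub1 the exception in both. In gch2-high cells 21 members were lower and none higher (9.89% and 3.61%). In EGFP-high cells 10 were lower and none higher (5.3% and 4.16%). The remaining cells had 5 higher and 1 lower (7.59% and 4.47%).

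Among the S genes, those of the replicative helicase are given by their sum. mcm2, mcm3, mcm4, mcm5, mcm6 and mcm7 encode the ring that unwinds DNA at the fork, and their sum was 249 CPM in untreated melanin-high cells, 491 in EGFP-high, 662 in gch2-high, 864 in remaining, 1110.2 in foxd3-positive and 1800.35 in twist1a-high cells. In the ErbBi library the same sums were 572, 1084, 939.7, 1562, 1319 and 2075 CPM. Melanin-high cells were lowest in both libraries and twist1a-high cells highest. In gch2-high cells the helicase sum did not differ from that of the other untreated cells beyond counting error (ratio 0.948, 0.862 to 1.04), and of its 6 genes mcm7 alone was called lower, while mcm4 had a ratio of 1.26. In EGFP-high cells mcm4 and mcm5 were called lower and the other helicase genes were not. cdc6, which loads the helicase, stood at 7.49 CPM in untreated melanin-high cells and 65.8 in twist1a-high cells. gins2, a part of the active helicase complex, stood at 23.5 and 149.7 CPM in the same classes. ccne2, a cyclin that drives entry into S phase, had 10.2 CPM in melanin-high, 49.4 in twist1a-high and 8.64 CPM in remaining cells, and was the 1 member lower in the last.

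Among the genes that work at the fork, pcna followed the order of the S sum in untreated cells. pcna, the sliding clamp of the polymerases, had 130.3 CPM in untreated melanin-high cells, 238 in EGFP-high, 339 in gch2-high, 497 in remaining, 667 in foxd3-positive and 1037 in twist1a-high cells. In the ErbBi library it had 272, 315, 376, 767, 612 and 868 CPM in these classes. lig1, the ligase that seals new strands, had 21.8 CPM in untreated melanin-high cells and 175 in twist1a-high cells, and fen1, which trims their flaps, had 45.9 and 334 CPM. Both were lower in the first class and higher in the second.

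Genes that supply nucleotides were lower in gch2-high cells, where the helicase sum was not. rrm1 and the 2 rows named RRM2 encode ribonucleotide reductase, dut removes dUTP, and tyms makes thymidylate. The RRM2 row ENSDARG00000078069 had the highest twist1a-high ratio of any member, 428 CPM against the other untreated cells at a ratio of 4.50 (3.90 to 5.19), and the row ENSDARG00000020711 had 418 CPM and a ratio of 4.21. In melanin-high cells these rows had 31.6 and 31.3 CPM, with ratios of 0.166 and 0.161, the lowest of all members there. In gch2-high cells rrm1 (ratio 0.486), dut (0.484) and both RRM2 rows (0.647 and 0.517) were called lower, and tyms had a ratio of 0.715 that was not called. With lig1 (0.549) and mcm7 (0.651) these made up the 6 S genes called lower there. How the authors' counting shared UMIs between the RRM2 rows is not given in the sources used here.

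In gch2-high cells the G2/M genes were lower more widely than the S genes. There 12 of 16 were called lower, against 6 of 17 S genes, and the G2/M sum was 0.489 times that of the other untreated cells (0.431 to 0.553), while the S sum was 0.803 times (0.754 to 0.853). mki67, a protein that coats mitotic chromosomes, had 42.4 CPM in untreated gch2-high cells, 37.8 in melanin-high, 95.04 in remaining, 102 in EGFP-high, 198 in foxd3-positive and 236 in twist1a-high cells. kif11, a spindle motor, had 2 UMIs in gch2-high cells, a ratio of 0.111 with an interval of 0.0134 to 0.409. top2a, which untangles DNA, was at 13.7 CPM in gch2-high and 88.3 in twist1a-high cells. cdk1, the kinase that starts mitosis, had 56.1 CPM and a ratio of 0.707 in gch2-high cells, above the fold limit. A further 4 mitotic genes were lowest in melanin-high or gch2-high cells and highest in twist1a-high or foxd3-positive cells. aurkb and birc5a are partners in the complex that corrects chromosome attachment. They had 35.4 and 11.9 CPM in melanin-high, 67.0 and 23.3 in gch2-high, 165 and 50.9 in twist1a-high and 160.5 and 56.8 in foxd3-positive cells. tpx2, a spindle assembly factor, had 20.1 CPM in melanin-high and 100.2 in foxd3-positive cells, and cdc20, which starts anaphase, had 8.21 CPM in gch2-high and 46.3 in foxd3-positive cells. In foxd3-positive cells the highest G2/M ratios were those of nusap1 (3.08), a spindle protein, aurka (2.98), a centrosome kinase, and cenpf (2.88), a kinetochore protein. For aurka the level was 40.0 CPM there and 38.9 in twist1a-high cells. In EGFP-high cells it was the other way round: all 10 members called lower were S genes and none of the 16 G2/M genes was called. Their S sum was 0.622 times that of the other cells (0.579 to 0.668) and their G2/M sum 0.883 times (0.798 to 0.975). This G2/M level was not shared by the whole class. It was 1049 CPM in the 32 EGFP-high cells with a foxd3 UMI and 244 CPM (195 to 303) in the 50 without.

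**Figure D2:**
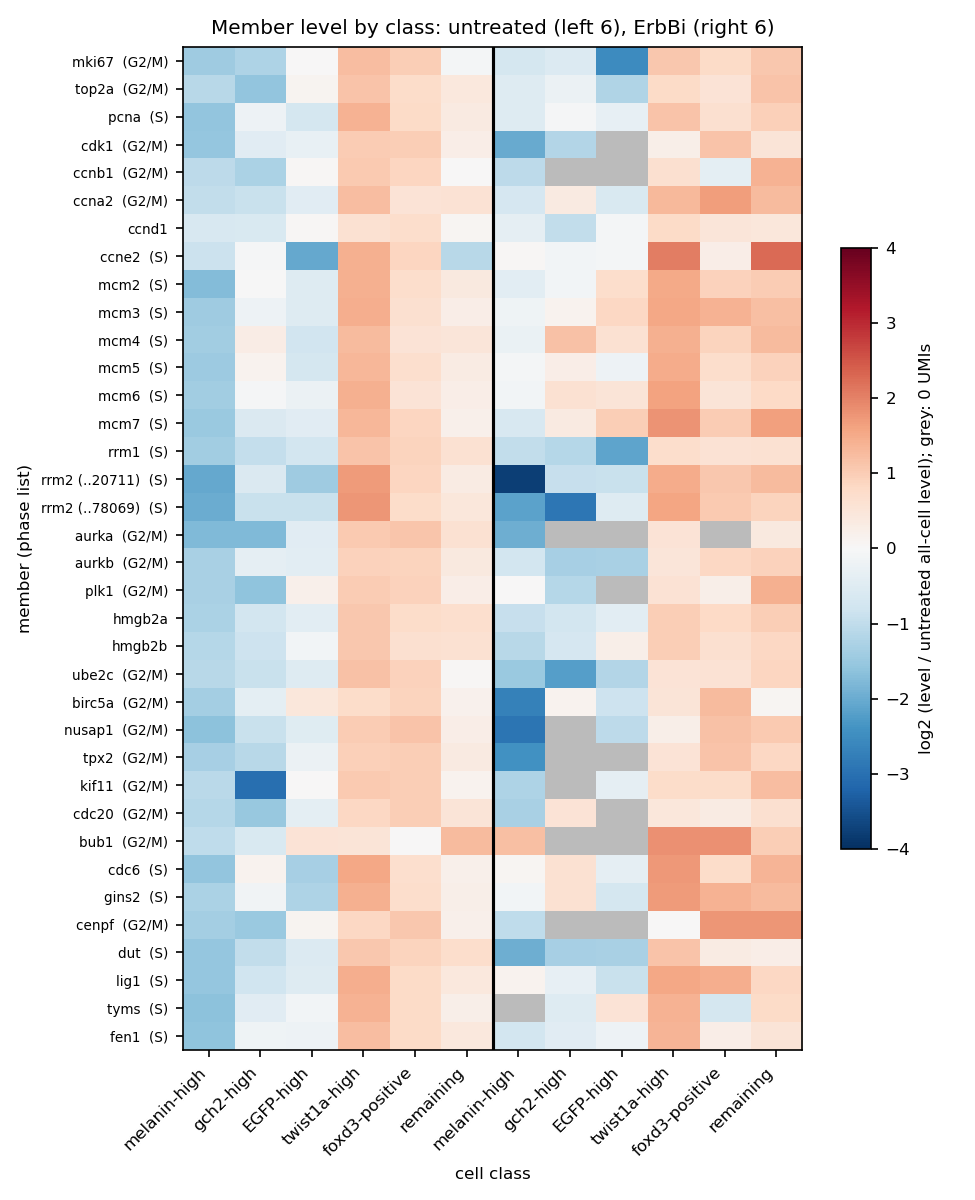
Level of each of the 36 member rows in each cell class, as the log2 ratio of its CPM to its own CPM over all untreated cells, for the untreated library (left of the line) and the ErbBi library (right). Blue marks a level below and red above that reference, and grey marks 0 UMIs. Melanin-high columns are blue for nearly all members in the untreated library, and twist1a-high columns are red.

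The 3 members left out of the phase lists were also lowest in untreated melanin-high cells, where ccnd1 did not differ from gch2-high cells beyond counting error. hmgb2a and hmgb2b encode chromatin proteins, and hmgb2a had 790.1 CPM in untreated melanin-high, 1139.8 in gch2-high, 1408 in EGFP-high, 2993 in remaining, 3150.45 in foxd3-positive and 3959.9 in twist1a-high cells, the order of the G2/M sum. hmgb2b had 654 CPM in melanin-high and 3068 in twist1a-high cells, and its order was the same. ccnd1, a cyclin that answers growth signals, had 129 CPM in melanin-high (117 to 143), 131 in gch2-high (106 to 160) and 327 in foxd3-positive cells. Its melanin-high ratio of 0.515 was nearest to 1 of all members called there. In the ErbBi library ccnd1 had 157 CPM in melanin-high and 103 in gch2-high cells, the latter from 6 UMIs.

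Shares of cells were compared after each cell had been thinned to 1900 UMIs, which kept 946 untreated and 280 ErbBi cells. A cell was called cycling at 3 or more UMIs of the S genes or of the G2/M genes. In untreated embryos 36 of 383 melanin-high cells were cycling by this call (9.40%, 6.67 to 12.8), 24 of 79 EGFP-high (30.4%), 56 of 118 gch2-high (47.5%), 64 of 138 remaining (46.4%), 118 of 161 foxd3-positive (73.3%, 65.8 to 79.9) and 65 of 67 twist1a-high cells (97.0%, 89.6 to 99.6). Without thinning the melanin-high share was 55.2% and the twist1a-high share 100% of 69 cells, in cells with a median of 7252 and 9652 UMIs. A share of this kind counts cells above a UMI number and cannot by itself show division. Free RNA in the droplets can add UMIs to a cell, and its part in these shares was not tested. Among thinned untreated twist1a-high cells gch2 was found in 92.5% and dct in 85.1%. There EGFP was found in 11.9% and foxd3 in 4.48%. The untreated melanin-high share is the lowest level any class gave. G2/M-positive cells made up 1.83% of melanin-high, 8.47% of gch2-high, 8.86% of EGFP-high, 18.1% of remaining, 32.3% of foxd3-positive and 37.3% of twist1a-high untreated cells. Adding hmgb2a, hmgb2b and ccnd1 raised the melanin-high share to 49.3%.

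**Figure D3:**
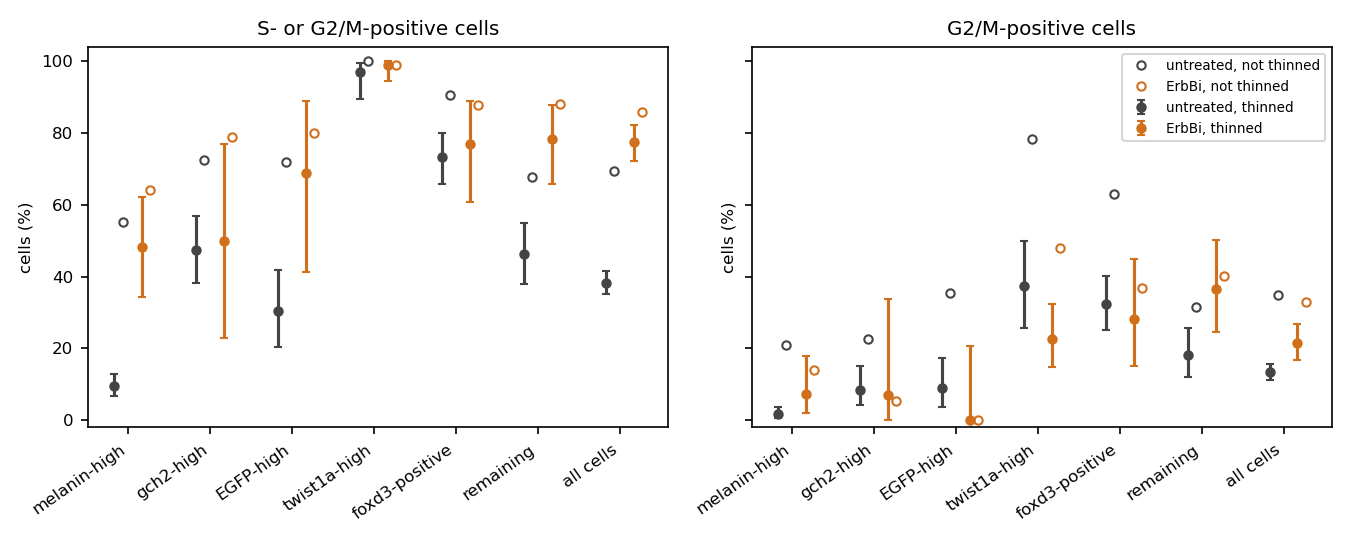
Percent of cells that reached 3 UMIs of the S or the G2/M genes (left) or of the G2/M genes (right), by class and library; filled points are thinned cells with exact 95% intervals and open points are cells at full depth. The thinned untreated share runs from 9.40% in melanin-high to 97.0% in twist1a-high cells.

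The few S UMIs of untreated melanin-high cells were unevenly spread over cells, as in the other untreated classes. The top 10% of cells held 42.8% of them, against 41.9% over all untreated cells. Of the 383 thinned cells 47.0% had no S UMI, the most in a cell was 10, and the variance over cells was 2.07 times the mean. Counts scattered evenly over cells of equal depth would give a variance near the mean. The ratio was 1.90 in twist1a-high, 2.90 in gch2-high, 3.44 in EGFP-high, 4.16 in foxd3-positive and 7.77 in remaining untreated cells. In the last class 26.1% of cells had no S UMI and 1 cell had 30, the widest spread of any untreated class. At full depth 137 of its 158 cells had an S UMI, so a 0 after thinning does not show a cell without S transcripts. Its other markers were mixed: erythroid marker genes summed to 3435 CPM and neural markers to 399.9 CPM in untreated remaining cells, and their part in the cell cycle values was not tested.

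Within untreated melanin-high cells the S level was lower where the melanin genes took more of the UMIs. Untreated cells with 1 to 2% of UMIs in those genes had 1111 CPM of S and 542 of G2/M (119 cells). Those with 2 to 4% had 493 and 209 CPM (153 cells), those with 4 to 8% had 384 and 185 (122 cells), and the 10 cells above 8% had 451 and 119. Most of the difference lay between the first and second steps. ErbBi cells with 1 to 2, 2 to 4 and 4 to 8% had 1317, 1232 and 1036 CPM of S (15, 37 and 11 cells). Their intervals overlapped (1008 to 1692, 1044 to 1445 and 740 to 1410), and their G2/M was 518, 259 and 362 CPM. Untreated cells that met no rule and had 0.25 to 0.5% of UMIs in the melanin genes stood at 2851 CPM of S (92 cells). Those with 0.5 to 1% stood at 764 (44 cells), below the 1111 CPM of cells with 1 to 2%, so the order did not hold across that step. Both sets belong to the mixed remaining cells, and melanin transcripts were read in other classes too. The 9 melanoblast marker rows summed to 3505 CPM in untreated twist1a-high cells. Among untreated cells a foxd3 UMI went with higher S levels. Melanin-high cells with foxd3 had 850.1 CPM of S (128 cells) and those without had 488 (276 cells), at median depths of 8913 and 6048 UMIs. In EGFP-high cells the gap was wider, 1788 CPM of S and 1049 of G2/M with foxd3 (32 cells) against 645 and 244 without (50 cells), at 9860.5 and 6750 UMIs. A cell read more deeply is more likely to show a foxd3 UMI, and the part of depth in these gaps was not tested. In gch2-high cells the S gap was smaller, 1627 CPM with foxd3 against 1453 without, at median depths of 6989.5 and 3637.5 UMIs. G2/M was 300.2 with foxd3 against 427 without, and the part of depth was not tested here either.

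**Figure D4:**
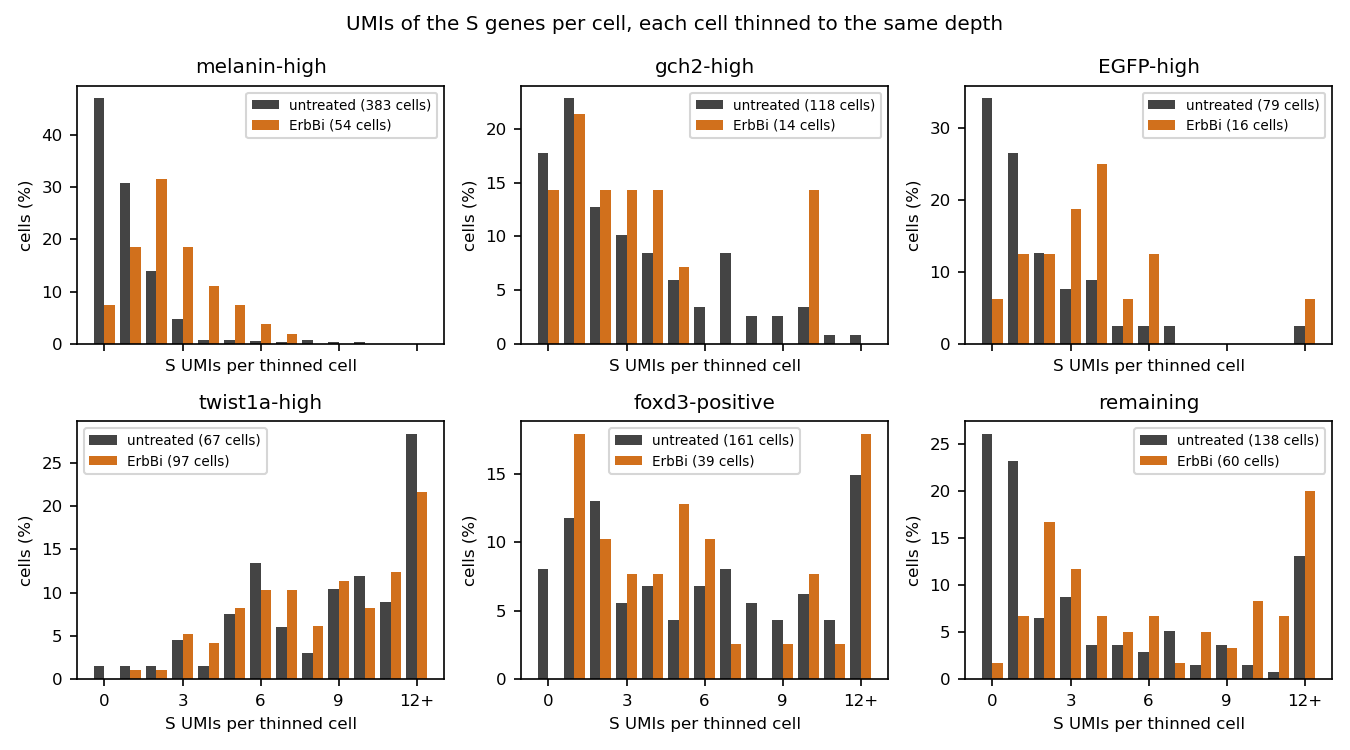
Percent of cells (vertical) by number of S-gene UMIs per thinned cell (horizontal, 12 or more pooled), for each class in the untreated and the ErbBi library, with the number of thinned cells in each legend. Untreated melanin-high cells pile up at 0 (47.0%), whereas ErbBi melanin-high cells at 0 are 7.41%.

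Over all cells the ErbBi library held more of the cell cycle transcripts, and more of S than of G2/M. The S sum was 1871 CPM in untreated and 3492 in ErbBi cells, a ratio of 1.87 (1.80 to 1.93), and the G2/M sum was 717 and 984 CPM, a ratio of 1.37 (1.28 to 1.46). Of the 36 members 19 were called higher and none lower, while of 12248 genes tested 18.7% were higher and 6.11% lower. The 19 were 15 of 17 S genes, 3 of 16 G2/M genes (mki67, ccna2 and cenpf) and hmgb2a. The G2/M count is near the 18.7% of all genes and shows nothing particular to that list. rrm1 and dut were the S genes not called, with ratios of 1.25 and 1.31. ccne2 had 18.5 CPM in untreated and 55.7 in ErbBi cells, the highest ratio called (3.01, 2.19 to 4.10). mcm7 had 134 and 335 CPM (2.50, 2.21 to 2.82) and pcna 392 and 648 CPM (1.65, 1.52 to 1.79). ccna2, a cyclin of S phase and G2, had 53.0 and 108 CPM (2.03, 1.64 to 2.50), and cdk1 had 77.0 and 83.5 CPM (1.08, 0.861 to 1.35). The members' median log2 ratio was 0.65 (S genes 0.99, G2/M genes 0.40) against 0.25 over all genes tested, so gene ratios as a whole leaned towards ErbBi. The 0.25 includes genes at 0 UMIs in 1 library, set there to 3 counts, and the part of this floor was not tested. Over 9273 genes with UMIs in both libraries and at least 30 in all, the median was 0.18. When the libraries were scaled by the median of gene ratios instead, a log2 shift of 0.18, 13 members were called higher and none lower, with 13.6% of all genes higher and 10.1% lower.

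**Figure D5:**
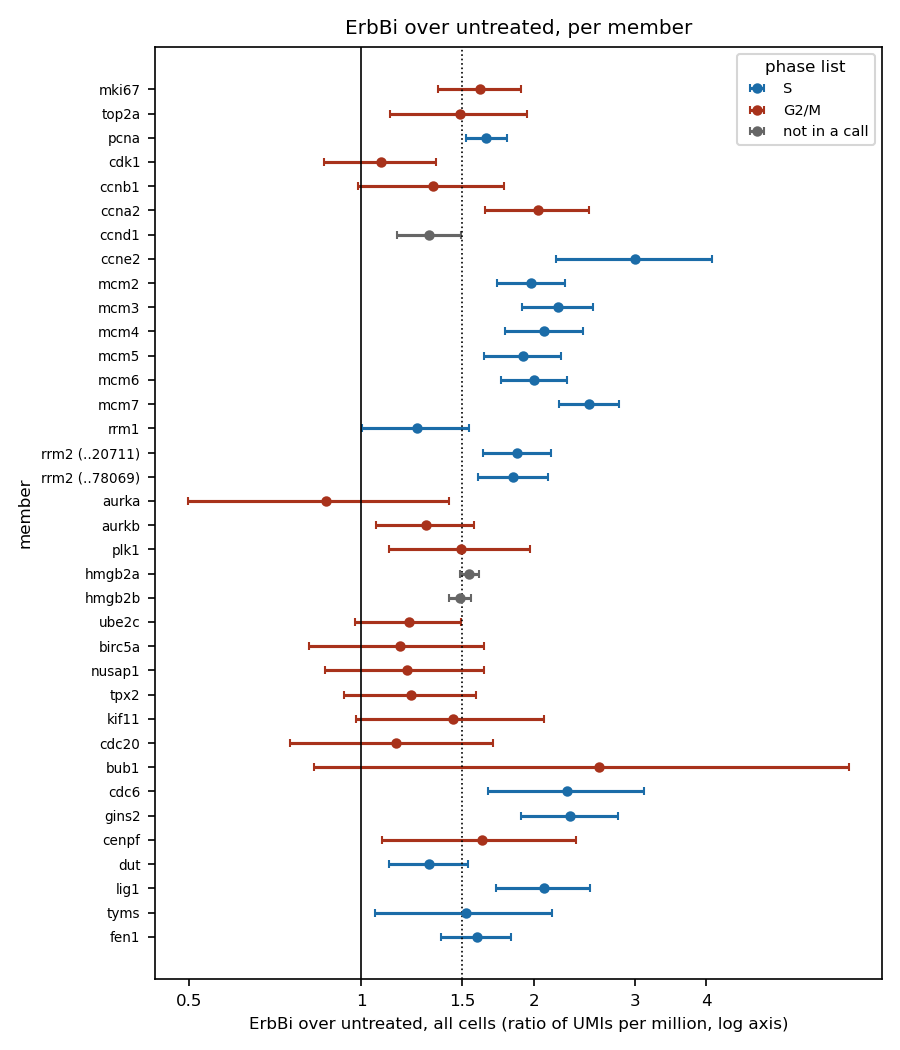
Ratio of ErbBi to untreated level over all cells for each member row, on a log axis, with 95% counting intervals and colours by phase list; the solid line marks no difference and the dotted line 1.5-fold. S genes lie mostly right of the dotted line, from 1.25 (rrm1) to 3.01 (ccne2), and most G2/M intervals cross it or lie left of it.

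The mix of cells differed between the libraries in the same direction. Melanin-high cells were 40.4% of untreated and 18.4% of ErbBi cells, and twist1a-high cells 6.91% and 29.9%. With each class given its mean share of both libraries, the S ratio was 1.24 in place of 1.87 and the G2/M ratio 1.04 in place of 1.37. Cells were put in classes at their full depth, which differed between the libraries. The part of depth in these shares and ratios was not tested. The thinned cycling share over all cells was 38.4% in untreated and 77.5% in ErbBi cells, and 69.6% and 85.9% without thinning.

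Classes differed in how far the libraries stood apart. In twist1a-high cells the S sum was 4958 and 5031 CPM (ratio 1.01, 0.960 to 1.07) and in foxd3-positive cells 3149 and 3302 CPM (1.05, 0.950 to 1.16). These intervals cover the counting of 1 library each and set no limit on a difference between treatments. The foxd3 and twist1a rules ask for at least 1 and 3 UMIs, so a shallower cell is less likely to meet them. Median depths were 7921.5 and 2548 UMIs in untreated and ErbBi foxd3-positive cells, where foxd3 itself stood at 463 and 759 CPM. The part of depth in the class ratios was not tested. Neural markers summed to 37.4 and 202 CPM in untreated and ErbBi twist1a-high cells and to 153 and 545 CPM in foxd3-positive cells, where mesenchyme markers summed to 118 and 324 CPM, and their part in these values was not tested. In twist1a-high cells none of 35 members with 10 UMIs was higher and 2 were lower (7.73% and 1.93% of all genes). The 2 were cdk1, with 156 CPM in untreated and 91.0 in ErbBi cells (ratio 0.584, 0.390 to 0.858), and ube2c, which marks mitotic proteins for removal, with 178 and 116 CPM (0.649, 0.453 to 0.917). Their G2/M sum was 1492 and 1141 CPM (0.765, 0.683 to 0.854), and it held 37.3% and 22.7% G2/M-positive thinned cells, whose intervals (25.8 to 50.0 and 14.8 to 32.3) overlap. Among cells that met at most 1 class rule this G2/M log2 ratio was -0.15 in place of -0.39. In foxd3-positive cells mcm3, lig1 and ccna2 were higher and aurka lower among 35 members (4.64% and 2.16% of all genes). aurka had 57 UMIs in untreated and 0 in 135658 UMIs of ErbBi foxd3-positive cells, a log2 ratio of -0.85 with the ErbBi value set to 3 counts, and the interval of the ratio reached up to 0.703. ccna2 had 77.8 and 170 CPM (2.18, 1.33 to 3.44), the opposite direction within the same phase list. With foxd3-positive cells required to hold 2 UMIs of foxd3, their G2/M log2 ratio was -0.70 in place of -0.04.

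In melanin-high cells the S sum was 632 CPM in untreated and 1205 in ErbBi cells (1.91, 1.67 to 2.18), while G2/M was 294 and 338 CPM (1.15, 0.889 to 1.46). Of 35 members 11 were higher and none lower, against 7.38% and 1.32% of all genes, and 10 of the 11 were S genes, with plk1, a mitotic kinase, the other. All 6 helicase genes were among them, and their sum was 249 and 572 CPM (2.30, 1.88 to 2.79). lig1 had 21.8 and 71.5 CPM (3.28, 1.74 to 5.82), from 15 UMIs in the ErbBi cells. No nucleotide gene was called: the RRM2 rows had 2 and 6 UMIs in ErbBi melanin-high cells (9.53 and 28.6 CPM, against 31.3 and 31.6 in untreated), dut had 33.3 CPM against 44.2, rrm1 had 38.1 against 28.2, and tyms had 0 UMIs against 23. The cells also differed in other transcripts. twist1a stood at 41.9 CPM in untreated and 409.7 CPM in ErbBi melanin-high cells, found in 7.83% and 53.7% of thinned cells, and the 8 mesenchyme marker rows summed to 65.3 and 529 CPM, 8 and 7 of them with a UMI. The part of RNA from twist1a-high cells in the melanin-high S level was not tested. Among cells that met at most 1 class rule the S log2 ratio was 1.22 in place of 0.93. Over both libraries 141 melanin-high cells also met the foxd3 rule and 8 the twist1a rule, and melanin-high cells without foxd3 stood at 488 CPM of S in untreated and 1184 in ErbBi cells.

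The melanin-high share of cycling cells in ErbBi was 26 of 54 thinned cells (48.1%, 34.3 to 62.2) against 9.40% in untreated, and it rests on the UMI limit. These cells had a mean of 2.54 S UMIs, close to the limit of 3, and at most 7. Their variance over mean was 1.02, near the value for evenly scattered counts. With so few UMIs in 54 cells this cannot show that the cells were alike. With 5 UMIs required the shares were 13.0% and 3.66%, and thinned to 1000 UMIs they were 9.38% and 4.70%. Averaged over all possible draws of 1900 UMIs the ErbBi share was 43.5%, and in the draw from the unfiltered table it was 31.5%. At full depth 64.1% of ErbBi and 55.2% of untreated melanin-high cells passed, the former with a median of 2820.5 UMIs and the latter with 7252.

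Remaining cells had 3781 CPM of S in ErbBi and 2427 in untreated cells (1.56, 1.44 to 1.69), and 1428 and 858 CPM of G2/M (1.66, 1.46 to 1.90). There 15 of 35 members were higher and none lower, against 9.02% and 4.52% of all genes, with 9 S and 6 G2/M genes among them. ccne2 had 8.64 and 89.7 CPM, from 7 and 22 UMIs (10.4, 4.29 to 28.8). mki67 had 95.04 and 212 CPM (2.23, 1.54 to 3.21), plk1 45.7 and 102 CPM (2.23, 1.29 to 3.81), and ccnb1, the mitotic partner of cdk1, 39.5 and 102 CPM. This class is not 1 cell type, and its markers moved as well: erythroid markers were at 3435 CPM in untreated and 0 UMIs in ErbBi remaining cells, macrophage markers at 12.3 and 139 CPM, mesenchyme markers at 256 and 706 CPM, epidermis markers at 895 and 726 CPM, neural markers at 399.9 and 620.03 CPM, and twist1a at 131 and 363 CPM. Their part in the cell cycle values was not tested. Median depths were 4593.5 and 2193 UMIs in untreated and ErbBi remaining cells. A shallower cell is less likely to meet the foxd3 or twist1a rule, and the part of depth was not tested either.

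Taken as a whole class, EGFP-high cells gave opposite directions for the 2 phases. The S sum was 1206 CPM in 82 untreated and 1888 in 20 ErbBi cells (1.57, 1.27 to 1.92), and the G2/M sum was 639.7 and 192 CPM (0.301, 0.149 to 0.543), the latter from 11 UMIs. Of 32 members 4 were higher (mcm2, mcm3, mcm4 and mcm7) and 1 lower (mki67), against 3.45% and 1.01% of all genes. mki67 had 68 UMIs in untreated and 1 in ErbBi EGFP-high cells (0.172, 0.00428 to 0.989). G2/M-positive thinned cells were 7 of 79 and 0 of 16, which allows a share of up to 20.6%. Among EGFP-high cells that met no other rule the G2/M log2 ratio was -0.40 in place of -1.73 and the S log2 ratio 1.33 in place of 0.65. In EGFP-high cells without a foxd3 UMI, G2/M was 244 CPM in 50 untreated cells (195 to 303) and 185 in 16 ErbBi cells (84.5 to 351). These intervals overlap, so the lower G2/M sum was not seen beyond counting error in cells without foxd3. twist1a was at 76.4 CPM in untreated and 209.8 in ErbBi EGFP-high cells, and its part was not tested. The gch2-high cells had 1533 and 1794 CPM of S (1.17, 0.949 to 1.43) and 369 and 342 CPM of G2/M (0.925, 0.556 to 1.46), with 19 ErbBi cells, too few for member calls.

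Other genes of the cycle were counted in the same way, against the shares of all genes given above (22.6% lower in melanin-high and 14.5% higher in twist1a-high cells). From a list of replication genes 21 of 23 rows were lower in untreated melanin-high cells and 20 of 23 higher in twist1a-high cells, and from a list of mitotic genes 29 of 31 were lower in the first and 24 of 31 higher in the second, with none the other way in either list. Among rows with at least 30 UMIs the replication ratios in melanin-high cells were low for chaf1b (0.196), a histone chaperone at the fork, and pola1 (0.222), a subunit of the polymerase that starts new strands. The highest were orc6 (0.641) and orc1 (0.612), subunits of the origin recognition complex, and gmnn (0.384), which stops relicensing. In the mitotic list bub1bb (0.122), a checkpoint gene, fbxo5 (0.127), which restrains the anaphase-promoting complex, and ccnb2 (0.159), a mitotic cyclin, were lowest. The row CKS2 (ENSDARG00000117089) at 1.01, cdc25b, a phosphatase that activates cdk1, at 0.691 and smc2, a condensin subunit, at 0.414 were highest. The other row of that name, cks2 (ENSDARG00000071410), had a ratio of 0.237 and was called lower. Of 12 G1 cyclins and regulators with 10 UMIs, 6 were lower in melanin-high cells, the lowest ratios being those of ccne1 (0.316), cdk2 (0.372) and e2f3 (0.429), while in twist1a-high cells 6 were higher and 1, a row named MYC (ENSDARG00000007241), was lower. Over all cells 14 of 23 replication, 13 of 31 mitotic and 6 of 12 G1 rows were higher in ErbBi and none lower, against 18.7% and 6.11% of all genes. The highest replication ratios were those of mcm10 (4.56 and 14.4 CPM, 3.15, 1.62 to 5.90), uhrf1, which carries DNA methylation through replication (32.3 and 95.2 CPM, 2.95, 2.32 to 3.72), and pola1 (21.0 and 55.7 CPM, 2.65, 1.94 to 3.59). Of 12 inhibitors and exit genes with 10 UMIs 3 were higher and 4 lower in untreated melanin-high cells, against 14.3% and 22.6% of all genes, which with so few rows shows nothing about the list. The higher ones were cdkn1ca, a cyclin-dependent kinase inhibitor, at a ratio of 1.54, mdm2, a ubiquitin ligase, at 1.87, and the row named GADD45A (ENSDARG00000043581), a stress gene, at 2.90. In twist1a-high cells cdkn1ca had a ratio of 0.438 and that GADD45A row 0.0627. Among the lower ones in melanin-high cells were cdkn1cb (0.341), rb1 (0.579) and btg2 (0.609). Over all cells cdkn1ca had 379 and 372 CPM in the libraries (0.981, 0.883 to 1.09).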

How the data were processed

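Untreated and ErbBi cells were captured with 10x Genomics 3' version 2 chemistry, 1 library each, per the labels' protocols. The deposited values are raw UMI counts per gene and cell, not normalised, in an unfiltered table of 1519 cells and a filtered table of 1347, and every cell kept had at least 701 genes while every cell left out had at most 699. Cell Ranger 2.1.1, FastQC 0.11.7 and the build GRCz11 are named in the submitters' processing notes, without role or order. No coordinates or sequences are printed, since the genome of that build was not used here. The name table gave a symbol for 17967 of 18723 gene rows. All columns of cells were used (0 left aside).

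The members, the cell classes and the other lists were chosen with earlier results of these data known. All members are named or counted. From each other list, rows called per direction were counted and rows named from the 3 highest and 3 lowest ratios among those with at least 30 UMIs; some of these rows are not reported here. The alternatives tried changed the UMI limit, thinning, class rules, weighting of cells, scaling, the count table and the fold.

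UMIs were summed per class and library and divided by the class total to give CPM. Intervals were exact: Poisson for CPM, conditional binomial for a ratio and Clopper-Pearson for a share, at 95%, for counting error only. Genes with fewer than 10 UMIs in the cells compared were not called, and 0 UMIs on one side was set to a floor of 3 counts. Class members needed at least 20 cells per library for a treatment comparison. Thinning drew 1900 UMIs per cell without replacement (1 seeded draw). Scrublet (scanpy 1.11.5), run on each library by itself, marked 5 untreated and 2 ErbBi cells as doublets, which stayed in the main values. The ratio code was checked on simulated data. Python 3.11.15, numpy 2.4.6, scipy 1.17.1 and pandas 2.3.3 were used.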

Additional observations from a re-analysis of the deposited data

Results flagged for a closer look

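For 3 members the ErbBi over untreated ratio lay above 1 in one class and below 1 in another, each with an interval that excludes 1, and the difference between the classes was not tested. They were picked out of all 36 members over the classes. pcna had a ratio of 2.08 in melanin-high cells and 1.54 in remaining cells but 0.837 in twist1a-high cells (0.734 to 0.953). The last falls short of the 1.5-fold limit and was not called. mki67 had a ratio of 2.23 in remaining cells and 0.172 in EGFP-high cells, the second from 1 UMI in the ErbBi library. ube2c had a ratio of 1.73 in remaining cells and 0.649 in twist1a-high cells.

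The cells that the authors' filter had left out held S UMIs as well. Their median depths were only 590 UMIs in ErbBi and 1344 in untreated, and the part of free RNA in their counts was not tested. The 149 ErbBi cells left out had 2626 CPM of the S genes (2321 to 2960) and the 23 untreated ones 1554 CPM (1153 to 2048), against 3492 and 1871 CPM in the cells kept.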

How the results depend on the processing

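No paired analysis was possible because both treatments are single libraries. Every limit set on the cycling call moved the shares. In untreated and ErbBi cells the share over all cells was 50.6% and 90.4% at 2 UMIs, 28.5% and 58.9% at 5 UMIs, 26.8% and 55.7% thinned to 1000 UMIs, 69.6% and 85.9% without thinning, 69.5% and 94.6% with hmgb2a, hmgb2b and ccnd1, and 34.8% and 71.8% without pcna. In melanin-high cells it was 25.3% and 79.6% at 2 UMIs, 3.66% and 13.0% at 5 UMIs, 4.70% and 9.38% thinned to 1000 UMIs, 55.2% and 64.1% without thinning, and 49.3% and 85.2% with the added genes. Untreated melanin-high cells also gave 6.53% without pcna, 4.03% among cells that meet at most 1 class rule and 5.15% above 2% melanin, and the ErbBi ones 31.5% from the unfiltered table. In twist1a-high cells it was 82.6% and 85.6% thinned to 1000 UMIs, 100% and 100% with the added genes, 100% in untreated cells without thinning, and in ErbBi cells 100% at 2 UMIs, with at most 1 rule or above the 90th percentile, and 91.8% at 5 UMIs. The ErbBi share was above the untreated one in each of these pairs over all cells and in melanin-high cells. The melanin-high log2 ratio over other untreated cells (S -2.11, G2/M -1.77) became -2.29 and -1.88 when cells counted equally, -2.54 and -2.14 with at most 1 rule, and -2.48 and -2.25 above 2% melanin. The twist1a-high one (1.67 and 1.23) became 1.46 and 0.98 with at most 1 rule and 1.45 and 0.90 above the 90th percentile. The remaining cells' G2/M log2 ratio of 0.30 became -0.051 when melanin-high cells needed 2%, which moves cells into that class. The ErbBi over untreated log2 ratio over all cells (S 0.90, G2/M 0.46) became 0.72 and 0.27 by the median of gene ratios, 0.72 and 0.28 by their trimmed mean, and G2/M 0.59 when cells counted equally. At 2-fold 9 members were called higher. With the shares of the untreated library the equal-mix S log2 ratio was 0.40 in place of 0.31. Members called under the trimmed mean, the unfiltered table and without doublets, and the average over all draws, were added after seeing the data. Depth limits the ErbBi classes most, with 57203 UMIs in EGFP-high cells.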
